A study of Mus musculus with 2 samples.

Results

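The 38 mouse Hox genes described here are the listed members of the 4 Hox clusters, matched by Ensembl gene identifier among the 43346 Ensembl genes of the deposited gene tables. They comprise 10 genes of cluster A on chromosome 6, 10 of cluster B on chromosome 11, 9 of cluster C on chromosome 15 and 9 of cluster D on chromosome 2. By position, 11 belong to paralog groups 1 to 4, 11 to groups 5 to 8 and 16 to groups 9 to 13, where a paralog group holds the genes at the matching position of the different clusters. The samples were 2 total RNA-seq libraries of hindbrain tissue dissected from embryos of mouse strain B6NCrl at 13.5 days, pooled over males and females, with 10 ng of input RNA of more than 200 nt per library. No genetic change or treatment is named in the labels. Both libraries belong to 1 group, biological replicates 1 and 2, and carry 1 donor label with different biosample labels, so part of the spread between replicates, and of any p-value set against it, may be technical. They held 33080194 and 38756411 estimated counts, which are reads assigned to genes by the authors' model and need not be whole.

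Hox genes encode homeodomain transcription factors that give cells their position along the head-to-tail axis. Within a cluster, genes nearer the 3′ end are switched on earlier and further forward than genes nearer the 5′ end, an order known as colinearity. In the hindbrain the 3′ genes divide the neural tube into segments called rhombomeres and set the identity of cranial motor neurons, while the middle and 5′ genes act mainly in the spinal cord, the trunk and the limbs. Hox proteins bind DNA together with Pbx and Meis homeodomain partners.

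The DNA-binding domain is encoded by the homeobox, a stretch of 180 bases that was located in all 38 genes, in GENCODE transcripts on GRCm38, and lay within a single exon in each. Over all pairs of the 38 genes, homeobox identity had a median of 80.6% (67.2% to 93.9%) in the 40 pairs within a paralog group and of 60.6% (46.1% to 88.9%) in the 663 other pairs. Reads cannot be assigned to 1 gene where transcripts share long stretches, and among the 38 genes such stretches were few. A run of more than 50 identical bases occurred in 3 of the 703 gene pairs. Hoxd3 and Hoxd4 shared 388 bases, Hoxc5 and Hoxc10 168, and Hoxa6 and Hoxb4 52. Outside the 38 genes, Hoxa2 shares 15.0% and Hoxa3 8.01% of its exon bases on the same strand with the overlapping gene Gm28308. Gm28308 had no count in either library.

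Levels are given as TPM, a transcript abundance that is divided by length and relative to all transcripts of a library. A gene counted as detected when its TPM reached 1 in each library. By this rule 20 of the 38 Hox genes were detected, against 35.4% of all Ensembl genes. Detection followed position in the cluster: 10 of 11 genes in paralog groups 1 to 4, 9 of 11 in groups 5 to 8 and 1 of 16 in groups 9 to 13. Cluster A had 6 of 10 genes detected, B had 8 of 10, C had 3 of 9 and D had 3 of 9. Together the 38 Hox genes had 652 TPM in replicate 1 and 808 in replicate 2 (730 ± 110, SD, n = 2). In a whole tissue, fewer cells of a type and less RNA per cell cannot be told apart.

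**Figure D1:**
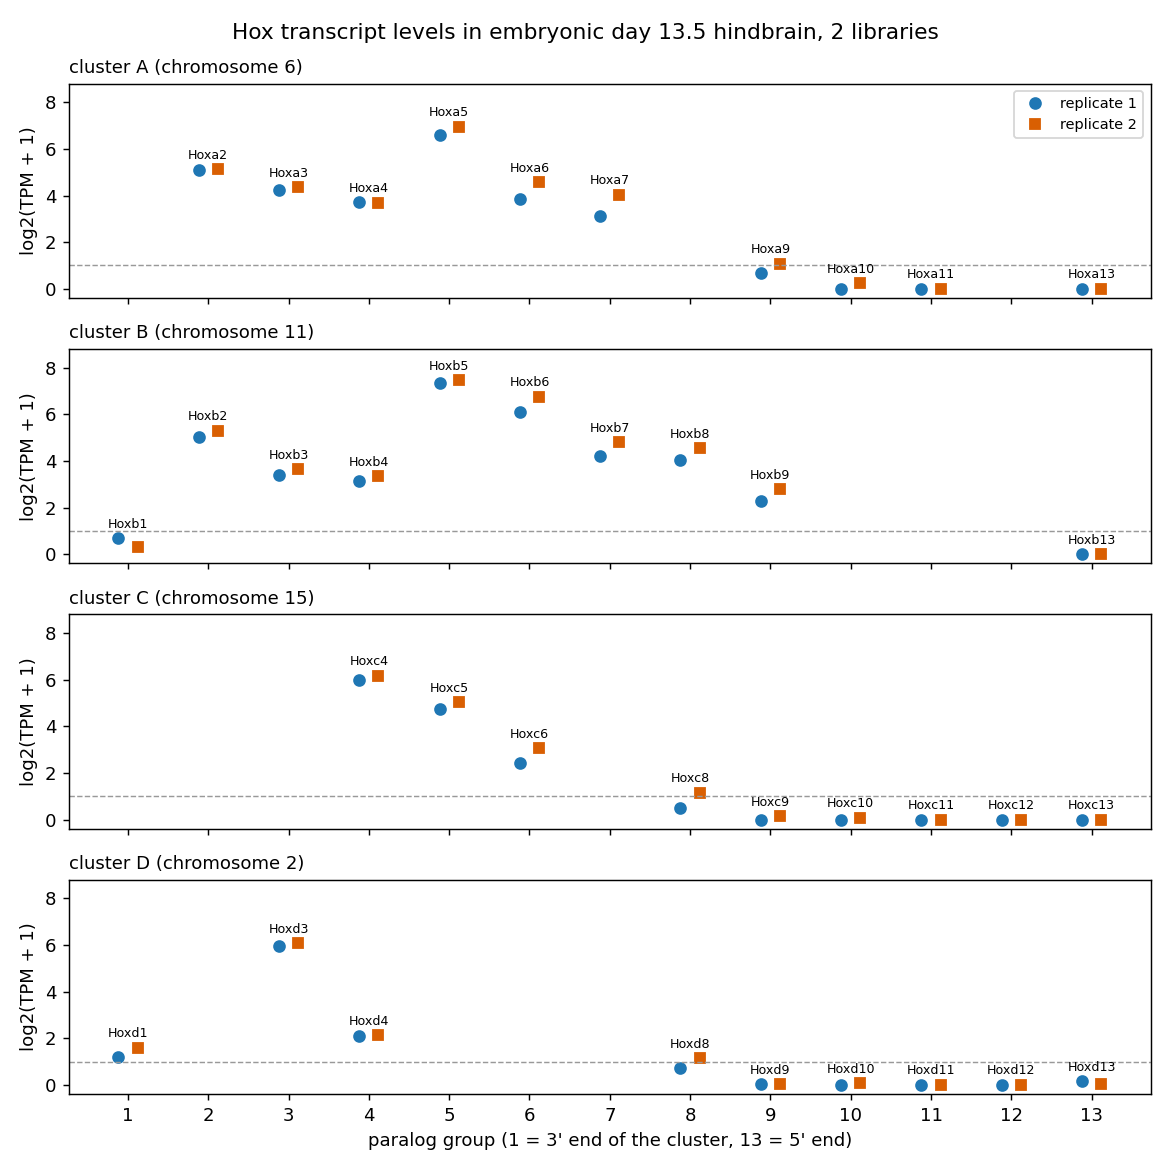
Level of each of the 38 Hox genes on a log2(TPM + 1) scale (vertical axis) by paralog group (horizontal axis), with 1 panel per cluster and 1 point per library; the dashed line marks a TPM of 1. Hoxa5 and Hoxb5 are the highest points of clusters A and B, and 15 of the 16 genes of groups 9 to 13 fall below the line in at least 1 library, Hoxb9 being above it in both.

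Cluster B held the largest share of the summed TPM of these 38 genes, 48.0% in replicate 1 and 49.1% in replicate 2. Cluster A held 27.4% and 28.0%, cluster C 14.2% and 13.7%, and cluster D 10.3% and 9.09%. By position, groups 5 to 8 held 62.4% and 66.0%, groups 1 to 4 held 36.9% and 33.1%, and groups 9 to 13 held 0.711% and 0.920%. Paralog group 5 alone accounted for 43.0% and 40.7%. The median log2(TPM + 1) of groups 9 to 13 was 0 in replicate 1 and 0.01 in replicate 2, since 8 of its 16 genes had no count. That of groups 1 to 4 was 3.71 and 3.67, so the difference of 3.68 ± 0.0346 (SD, n = 2) is set by the added 1: it was 6.84 with a pseudocount of 0.1 and 1.98 over genes that reached 10 counts in the pair. The median of groups 5 to 8 exceeded that of groups 1 to 4 by 0.35 and 0.90 (0.62 ± 0.385, SD, n = 2), and by 0.26 with CPM, which is not divided by length.

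**Figure D2:**
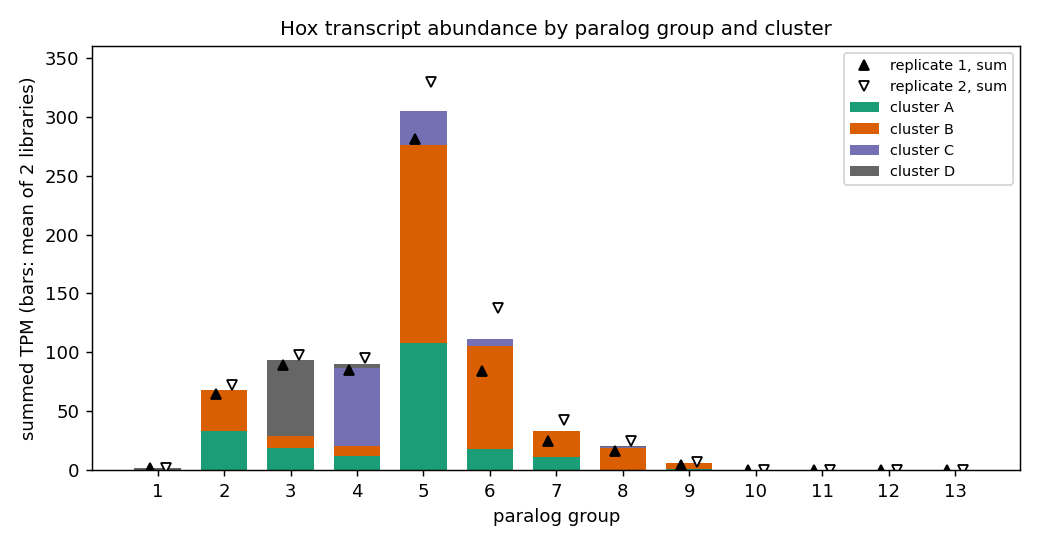
Summed TPM (vertical axis) of the 38 Hox genes by paralog group (horizontal axis); bars are the mean of the 2 libraries split by cluster, and triangles are the sum in each library. Group 5 reaches 281 TPM in replicate 1 and 329 in replicate 2, and in groups 5, 6, 7, 8 and 9 cluster B is the largest block.

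The 2 genes of paralog group 1 described here lay near the detection threshold. Hoxb1, which sets the identity of rhombomere 4 and of facial motor neurons, had 0.60 TPM in replicate 1 and 0.25 TPM in replicate 2, from 19 and 12 counts. Hoxd1, which in mouse acts in pain-sensing neurons, had 1.32 and 2.00 TPM from 48 and 86 counts. Both stood far below their 5′ neighbours Hoxb2 and Hoxd3 in each library.

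Group 2 genes pattern the front of the hindbrain. Hoxa2, a selector of the skeleton of the second pharyngeal arch and of rhombomeres 2 and 3, had 32.9 and 33.9 TPM in the 2 libraries. Hoxb2, which is needed for facial motor neurons, had 31.4 and 38.3 TPM. Hoxa2 was the higher of the pair in replicate 1 and Hoxb2 in replicate 2.

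Among the group 3 genes, which act in the caudal hindbrain and its somatic motor neurons, 1 member stood apart. Hoxd3 (ENSMUSG00000079277.5, chr2:74711927-74748442, plus strand) had 61.7 TPM in replicate 1 and 66.8 TPM in replicate 2. Of this, 57.4% and 55.6% came from a transcript annotated as a retained intron. The protein-coding transcripts of Hoxd3 had 26.3 and 29.6 TPM. Hoxa3, also needed for the thymus and parathyroid, had 17.7 and 19.3 TPM. Hoxb3 had 9.50 and 11.5 TPM. The 3 genes did not overlap in level, although their homeoboxes were 92.8% to 93.9% identical.

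Group 4 genes have forward limits near the boundary of rhombomeres 6 and 7, and their levels in the 4 clusters differed widely. Hoxc4 (ENSMUSG00000075394.4, chr15:103018934-103036852, plus strand) had 62.1 and 70.6 TPM. Hoxa4 had 12.1 and 11.8 TPM, and Hoxb4 had 7.77 and 9.20 TPM. Hoxd4 was the lowest at 3.34 and 3.40 TPM. The library values of no group 4 gene overlapped with those of another. By the TPM of all transcripts Hoxd3 stood 18.5-fold above Hoxd4, its 5′ neighbour, in replicate 1 and 19.6-fold in replicate 2. By protein-coding transcripts alone Hoxd3 had 26.3 and 29.6 TPM and Hoxd4 had 3.34 and 3.16 TPM. Hoxd3 shares 62.3% of its exon bases on the same strand with Hoxd4 and the overlapping gene Gm28230, and Hoxd4 shares 52.3% with Hoxd3 and Gm28230, so the split of reads between them is uncertain.

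Group 5 genes are known for motor neurons of the neck, including those of the diaphragm, and for the lung. Hoxb5 (ENSMUSG00000038700.4, chr11:96303336-96306121, plus strand) had 159.95 TPM in replicate 1 and 175.4 TPM in replicate 2, from 5979 and 7770 counts. Hoxa5 (ENSMUSG00000038253.6, chr6:52201754-52204587, minus strand) had 94.7 and 122 TPM. Hoxc5 had 26.1 and 31.7 TPM. The 3 genes did not overlap in either library, and Hoxb5 was the highest of all 38. In both clusters A and B the level jumped between group 4 and group 5: Hoxa4 was 0.127 and 0.0964 times Hoxa5, and Hoxb4 was 0.0486 and 0.0525 times Hoxb5. In cluster C the order was the opposite, with Hoxc4 2.38-fold and 2.23-fold above Hoxc5.

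Group 6 genes are best known from the brachial spinal cord, where Hoxc6 marks forelimb motor neurons. Hoxb6 (ENSMUSG00000000690.5, chr11:96292476-96301569, plus strand) had 66.9 TPM in replicate 1 and 107 TPM in replicate 2, the third highest mean of the 38. Hoxa6 had 13.3 and 22.7 TPM and Hoxc6 had 4.34 and 7.35 TPM. All 3 were higher in replicate 2, and the genes kept their order in both libraries. Hoxa6 lay 7.12-fold and 5.36-fold below Hoxa5, and Hoxc6 lay 6.0-fold and 4.32-fold below Hoxc5.

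Groups 7 and 8 act in the trunk, and Hoxb8 also marks a lineage of microglia. Hoxb7 had 17.5 and 26.95 TPM and Hoxa7 had 7.69 and 15.3 TPM. Hoxb8 had 15.7 and 22.2 TPM. The other group 8 genes were at the threshold: Hoxc8, a factor of forelimb motor pools, had 0.41 and 1.22 TPM from 15 and 55 counts, and Hoxd8 had 0.64 and 1.21 TPM from 31 and 75 counts. Both reached 1 TPM in replicate 2 only.

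Groups 9 to 13, which pattern the thoracic to caudal trunk, the limbs and the genital region, had few counts or none. Hoxb9 (ENSMUSG00000020875.9, chr11:96271457-96276595, plus strand) had 3.89 TPM in replicate 1 and 5.90 TPM in replicate 2, from 199 and 351 counts, and was the detected member. Hoxa9 lay just outside with 0.61 and 1.10 TPM from 36 and 64 counts, while the lowest detected gene of all was Hoxd1 at 1.66 ± 0.481 TPM (SD, n = 2). The fall from group 7 or 8 to group 9 was 12.6-fold and 13.9-fold from Hoxa7 to Hoxa9, and 4.03-fold and 3.75-fold from Hoxb8 to Hoxb9. In cluster C the level fell 10.6-fold and 6.02-fold from Hoxc6 to Hoxc8, and a further 11.1-fold from Hoxc8 to Hoxc9 in replicate 2, while Hoxc9 had no count in replicate 1. Hoxd9 had 1 count in each library. Hoxa10, Hoxc9, Hoxc10 and Hoxd10 had no count in replicate 1 and 7, 6, 2 and 2 counts in replicate 2. Hoxd13, which patterns the digits, had 6 and 1 counts. The other 8 genes (Hoxa11, Hoxa13, Hoxb13, Hoxc11, Hoxc12, Hoxc13, Hoxd11 and Hoxd12) had no count in either library. Counting 3 reads as the limit that a count of 0 allows, this leaves room for 0.0597 TPM (Hoxd12) to 0.156 TPM (Hoxc12) in replicate 1, and for 0.0505 to 0.132 TPM in replicate 2, by counting error only. The deposited upper TPM bounds, of unstated level, reached further than the limit of the same gene for Hoxa13, Hoxd11 and Hoxa11. The bound of Hoxa13 was 0.638 TPM in replicate 1 and 0.539 TPM in replicate 2. That of Hoxd11 was 0.158 and 0.133 TPM, and that of Hoxa11 0.108 and 0.0919 TPM.

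Ranked by mean TPM, the order began with Hoxb5, Hoxa5, Hoxb6, Hoxc4 and Hoxd3, and these 5 genes kept that order in both libraries. Since all genes of a library share its scale, neighbours were compared within each library. Of the 23 pairs of neighbours from Hoxb5 down to Hoxb1, 16 had the same order in both libraries and 7 turned. In 5 of the 16 the deposited TPM intervals, of unstated level, were also apart in both libraries: Hoxb5 above Hoxa5, Hoxa5 above Hoxb6, Hoxd3 above Hoxb2, Hoxc5 above Hoxb7 and Hoxd4 above Hoxd1. The intervals of Hoxc4 and Hoxd3 overlapped in both libraries. The order is that of TPM summed over all transcripts of a gene. By protein-coding transcripts alone Hoxd3, at 26.3 and 29.6 TPM, lay below Hoxb2, at 28.2 and 35.4 TPM. The pairs that turned were Hoxb2 and Hoxa2, Hoxb8 and Hoxa3, Hoxa3 and Hoxa6, Hoxa4 and Hoxa7, Hoxa7 and Hoxb3, Hoxa9 and Hoxc8, and Hoxc8 and Hoxb1. Hoxa7 lay below Hoxa4 in replicate 1 and above it in replicate 2, with intervals apart in both.

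The 2 libraries were also compared with each other. Each gene with at least 10 estimated counts in the pair was put to a two-sided exact binomial test of the counts, scaled by TMM, with Benjamini-Hochberg adjustment over all genes tested at 0.05. Such a test compares these 2 libraries against counting error and says nothing of the spread between embryos. Of 24 Hox genes tested, 18 were higher in replicate 2, none was lower and 6 were not called, while 14 had too few counts. Among all 19687 genes tested, 7.07% were higher in replicate 2 and 5.49% were lower. The 6 genes without a call were Hoxa2, Hoxa4, Hoxa9, Hoxb1, Hoxd1 and Hoxd4. Of the 20 detected Hox genes, 12 had deposited TPM intervals that did not overlap between libraries and were higher in replicate 2, against 4.44% of all detected genes. The median log2 ratio of replicate 2 over replicate 1 was 0.32 over the 20 detected Hox genes and 0.01 over all detected genes.

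From group 2 to group 9 the difference between the libraries varied with the position of the gene in its cluster. All 11 genes of groups 5 to 8 were called higher in replicate 2 by the binomial test. In groups 1 to 4 it was 6 of 11, beside 7.07% of all genes tested. A call depends on the number of counts as well as on the fold. Without a call, Hoxa2, Hoxd1 and Hoxd4 had higher scaled counts in replicate 2, and Hoxa4 and Hoxb1 had lower. Summed counts of group 2 were 1.13-fold higher in replicate 2 after scaling (exact 95% interval 1.07 to 1.19). Those of group 3 were 1.13-fold higher (1.08 to 1.17), those of group 4 1.14-fold (1.09 to 1.19) and those of group 5 1.19-fold (1.16 to 1.22). The step came between groups 5 and 6: group 6 was 1.62-fold higher (1.54 to 1.71), group 7 1.64-fold (1.49 to 1.81), group 8 1.61-fold (1.44 to 1.79) and group 9 1.54-fold (1.31 to 1.81). The intervals of groups 6 to 9 lay above those of groups 2 to 5, and the interval of the 2 group 1 genes, 0.911 to 1.74, overlapped with both. Beyond group 9 the counts were few: group 10 had 0 and 11 counts (lower limit of the fold 2.16), and group 13 had 6 and 1 counts, a fold of 0.143 (0.00311 to 1.18), which lay below groups 6 to 9. These intervals cover counting error only. Across the 20 detected genes the Spearman correlation of paralog group with the log2 ratio was 0.58 and the Pearson correlation 0.59. The genes share both libraries and are not replicates.

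**Figure D3:**
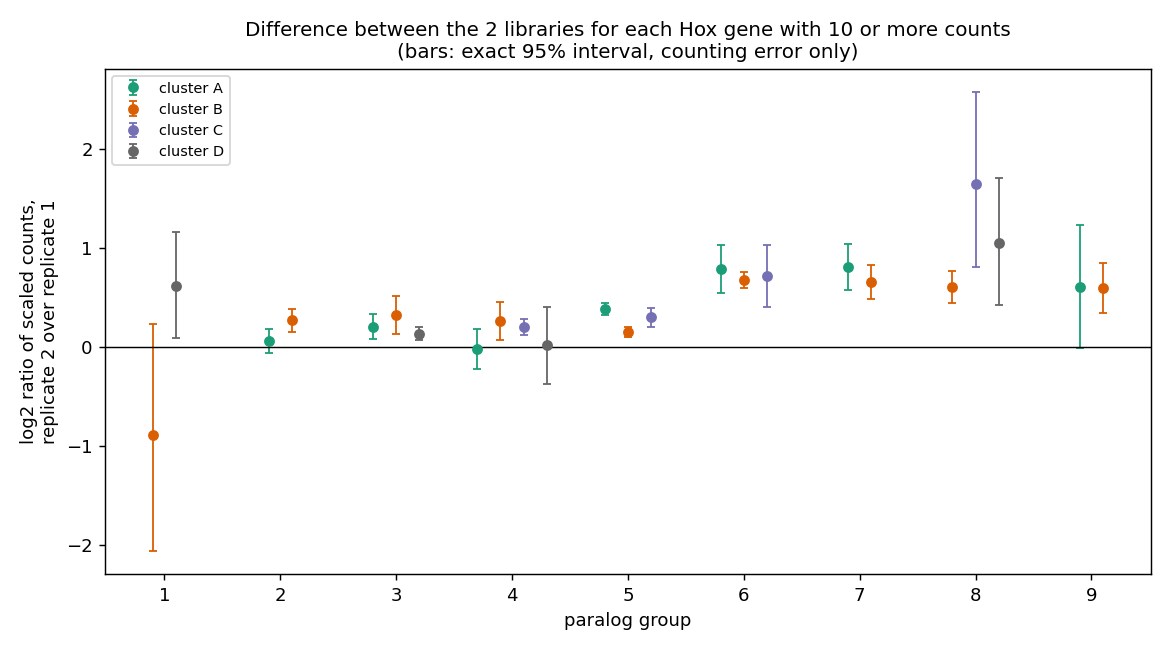
Log2 ratio of TMM-scaled counts, replicate 2 over replicate 1 (vertical axis), for the 24 Hox genes that reached 10 counts over both libraries, by paralog group (horizontal axis) and cluster (colour); bars are exact 95% intervals for counting error. Groups 6 to 9 sit higher than groups 2 to 5, with the widest bars on the genes with fewest counts, such as Hoxb1 and Hoxc8.

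The folds of single genes in groups 2 to 9 showed the same step, but some intervals overlapped across it. Hoxb3 of group 3, at 1.26 (1.10 to 1.43), overlapped with Hoxb9, as did Hoxb2, Hoxb4, Hoxd4, Hoxa5 and Hoxc5. The interval of Hoxa9, 0.999 to 2.36 without a call, also overlapped with genes of groups 2 to 5. Hoxd1 of group 1 had 1.54 (1.07 to 2.24) without a call. Hoxb6 had 1820 and 3406 counts, a scaled fold of 1.61 (1.52 to 1.70, adjusted p = 2.60e-59 by the exact binomial test). Hoxa7 had 229 and 469 counts, a fold of 1.76 (1.5 to 2.07), and Hoxa6 had 213 and 430 counts, a fold of 1.73 (1.47 to 2.05). Hoxb9 was 1.51-fold higher (1.27 to 1.81, adjusted p = 7.18e-05 by the exact binomial test). Hoxc8 had the highest fold of the called genes, 3.15 (1.75 to 6.0), from 15 and 55 counts. By contrast Hoxb5, with the most counts, was 1.12-fold higher (1.08 to 1.15), and Hoxa5 was 1.31-fold higher (1.25 to 1.36). The intervals of Hoxb5 and Hoxa5 lay apart, and neither overlapped with that of the summed group 5 counts, 1.16 to 1.22. Hoxd3 was 1.10-fold higher (1.05 to 1.16), and Hoxa2 was 1.05-fold (0.964 to 1.13) without a call. With the libraries scaled by spike-in counts instead of TMM, the median log2 ratio of all detected genes moved to -0.14 and that of the 20 detected Hox genes to 0.17. Under that scaling 11 Hox genes were higher in replicate 2 and none lower, against 2.82% of all genes higher and 37.5% lower.

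Markers of tissues that could be dissected along with the hindbrain were measured beside this difference. Of 10 hindbrain markers 9 were detected, with sums of 169 TPM in replicate 1 and 199.7 in replicate 2. Forebrain markers summed to 21.5 and 20.7 TPM, with 1 of 7 detected (Lhx2). Caudal embryo and tailbud markers summed to 2.69 and 4.76 TPM, with 1 of 5 detected: Wnt3a, a signal also made by the dorsal neural tube, had 1.15 and 3.36 TPM, while Cdx2 had 3 counts and none. Somite, cartilage and muscle markers summed to 18.4 and 11.8 TPM (3 of 8 detected), those of meninges and connective tissue to 467 and 342 TPM (5 of 5), those of ganglia to 121 and 135 TPM (5 of 5) and those of limb to 39.8 and 27.6 TPM (1 of 3, Shox2). The limb sum was almost all Shox2, at 39.5 and 27.3 TPM. Tbx5 had 2 counts in each library and Tbx4 had 16 and 19. Midbrain markers summed to 92.5 and 89.7 TPM (3 of 4) and those of blood and endothelium to 2063 and 2239 TPM (3 of 3). Pou4f1 had 68.2 and 67.5 TPM of the midbrain sum. By the binomial test, 4 of 10 hindbrain, 1 of 6 forebrain and 1 of 4 caudal markers tested were higher in replicate 2. So were 2 of 5 of ganglia and 2 of 3 of blood and endothelium. Lower were 3 of 7 of somite, cartilage and muscle, 3 of 5 of meninges and connective tissue and 1 of 2 of limb. In midbrain 1 of 4 was lower (En1, 6.33 and 3.21 TPM). No list had calls both ways. Of all genes tested, 7.07% were higher and 5.49% lower. The part of other tissue or of the length of neural tube dissected in the Hox difference was not tested.

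Most detected Hox genes were read mainly as 1 transcript. Of the 20, 6 have a single annotated transcript and 14 have several, 42 transcripts in all. Each transcript's percent of the TPM of its gene is as deposited by the authors. In 10 of the 14 genes 1 transcript held 80% or more in both libraries, and in 13 of the 14 the leading transcript was the same in both. Hoxc5-201 held 100% in both libraries, and Hoxb5-201 held 98.5% and 97.8%.

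The exceptions were Hoxa7, Hoxb3, Hoxb8 and Hoxd3. In Hoxd3 the leading transcript was Hoxd3-206, annotated as a retained intron, with 57.4% and 55.6%. The protein-coding transcripts of Hoxd3 came to 26.3 and 29.6 TPM, less than the TPM of Hoxd3-206 itself, 35.4 and 37.1. In Hoxa7 the leading transcript was Hoxa7-205, annotated as a target of nonsense-mediated decay, with 53.95% and 43.5%, and the coding transcripts came to 3.54 and 8.64 TPM. The deposited intervals of Hoxa7-205 and the coding Hoxa7-203 overlapped in both libraries, so this lead is uncertain. In Hoxb3 the coding Hoxb3-202 held 53.5% and 55.2% and the noncoding Hoxb3-204 held 23.5% and 21.6%. Hoxb8 was split between a pair of coding transcripts whose order changed: Hoxb8-202 led in replicate 1 with 51.5% and Hoxb8-201 in replicate 2 with 50.9%. Their deposited intervals overlapped in both libraries. Noncoding transcript types exceeded 10% in both libraries in 3 genes, Hoxa7, Hoxb3 and Hoxd3.

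**Figure D4:**
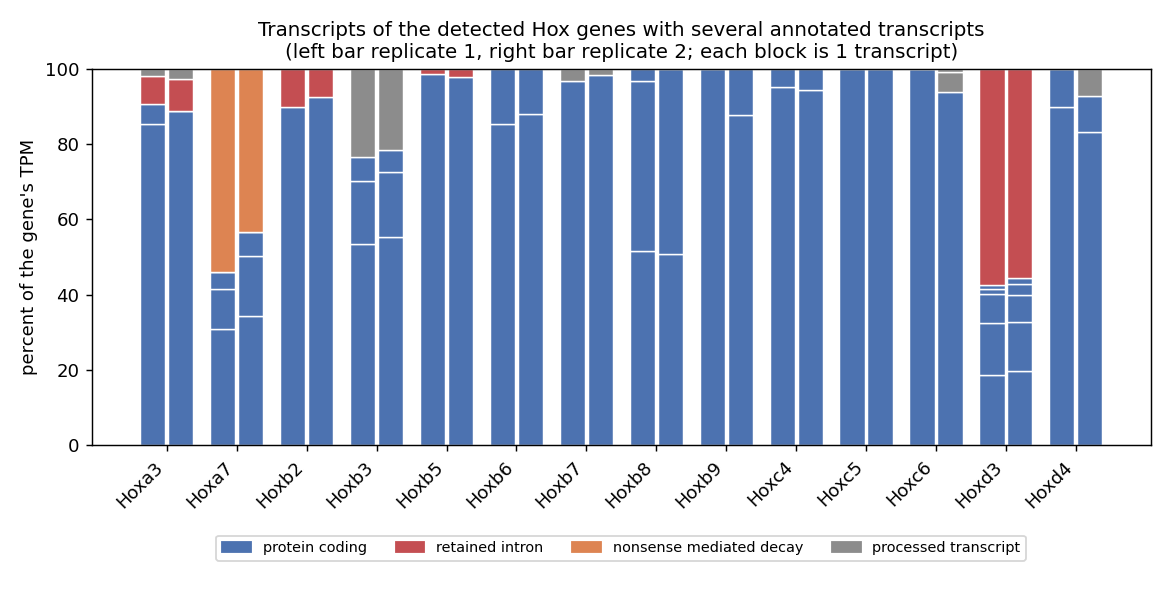
Share of each annotated transcript in the TPM of its gene, in percent (vertical axis), for transcripts of the 14 detected Hox genes with several transcripts (horizontal axis), replicate 1 left and replicate 2 right; each block is 1 transcript, coloured by annotated type. Hoxd3 is mostly retained intron, Hoxa7 has the only nonsense-mediated decay block, and 10 genes have 1 block of 80% or more in both bars.

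Antisense overlap limits some of these values, because no strand setting is given in the sources used here. Hoxb3 has 52.9% of its exon bases opposite the exons of the antisense gene Hoxb3os, and Hoxb2 has 27.3% opposite it. Hoxa3 has 25.4% opposite Hoxaas2, Hoxaas3 and 2 other genes, Hoxa7 has 20.4% opposite Hoxaas3, and Hoxa4 has 16.0% opposite Gm29430. Of the detected genes, Hoxa5, Hoxa6, Hoxb4, Hoxb6, Hoxb7, Hoxb8, Hoxb9, Hoxc4, Hoxc6 and Hoxd1 have no annotated exon overlap on either strand.

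The clusters also hold 40 other annotated genes between their outermost listed Hox genes, and 11 of them were detected: 4 in cluster A, 3 in B, none of 7 in C and 4 in D. The 5 with the highest level are all long noncoding or antisense transcripts. Hoxaas2 had 21.8 TPM in replicate 1 and 20.4 TPM in replicate 2, Hoxb3os 19.4 and 21.4, and Hoxaas3 13.2 and 14.8. Haglr, which lies between Hoxd1 and Hoxd3 on the other strand and reaches the end of Hoxd3, had 10.5 and 12.5 TPM. Hoxb5os, which spans Hoxb5 and Hoxb6 on the other strand, had 9.94 and 19.1 TPM and was 1.95-fold higher in replicate 2 (adjusted p = 3.21e-07 by the exact binomial test), and the other 4 of these genes were not called. Hotair in cluster C had no count in either library.

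Among those 40 genes are 6 microRNA genes. Those of the miR-10 and miR-196 families are known to repress Hox transcripts, and the other is Mir615 in cluster C. Mature microRNAs fall into families by the seed, bases 2 to 8, shown in capitals. The sequences below are from RefSeq (GRCm38.p6), 5′ to 3′, and are shown because members of a family sit at matching positions of different clusters.
mmu-miR-10a-5p: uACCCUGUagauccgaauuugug
mmu-miR-10b-5p: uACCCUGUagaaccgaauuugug
mmu-miR-196a-5p: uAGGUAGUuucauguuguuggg
mmu-miR-196b-5p: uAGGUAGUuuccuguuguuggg
The first pair, from Mir10a in cluster B and Mir10b in cluster D, share a seed, and so do the second pair, from Mir196a-1 in cluster B, Mir196a-2 in cluster C and Mir196b in cluster A. None of the 6 genes had a count in either library. The 5 hairpins with a RefSeq entry are 68 to 110 bases long, below the 200 nt minimum of the RNA, so these libraries do not measure them.

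Genes that work with or upstream of the Hox genes were read from 4 lists. All 9 cofactor genes of the Meis, Pbx and Pknox families were detected, led by Meis1 at 173 ± 0.325 TPM, with Meis2 at 128 ± 21.3 TPM next by the mean but below Meis3 in replicate 2 (SD, n = 2), and with 1 called higher and 2 lower in replicate 2. Of 16 upstream regulators 12 were detected, led by Ezh2, the Polycomb histone methyltransferase, at 81.8 ± 0.615 TPM and Gbx2, a factor of the anterior hindbrain, at 44.9 ± 0.120 TPM (SD, n = 2). Cdx1 and Cdx4, activators of trunk Hox genes, had no count in either library. Of the 13 regulators with enough counts to test, 3 were called higher and 2 lower in replicate 2. For each of these lists, the share called over all genes tested was 7.07% higher and 5.49% lower. All 8 genes flanking the clusters were detected, led by Mtx2 at 122 ± 3.23 TPM and Cbx1 at 88.0 ± 1.10 TPM (SD, n = 2), with 1 called higher and none lower. All 6 listed hindbrain targets were detected, led by the axon guidance receptor Robo2 at 79.4 ± 2.02 TPM and Gata3 at 37.3 ± 15.7 TPM (SD, n = 2). Gata3 was next to Robo2 by the mean, but not in replicate 2, where Epha4 exceeded it. In these 4 lists the median log2 ratio of replicate 2 over replicate 1 was -0.01 for cofactors, 0.07 for regulators, 0.05 for flanking genes and -0.05 for targets, beside 0.36 for the 24 Hox genes tested.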

How the data were processed

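Total RNA-seq was analysed in 2 hindbrain libraries of 1 group. Gene and transcript tables of each library were deposited by the authors, on assembly mm10 and GENCODE M4, per the labels and deposited notes. For the strand setting, the aligner, the counting program and their versions, the entry is: not given in the sources used here. The deposited expected counts (estimated counts) are not whole and were rounded for tests. The deposited TPM values are relative to all rows, spike-ins included (5.50% and 5.99% of TPM). Also deposited were FPKM, posterior mean TPM values, the bounds of a TPM interval of unstated level (treated as a signal) and the percent of a gene's TPM per transcript.

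Names and positions came from GENCODE M21 on GRCm38, the build of mm10, by identifier without version; 42462 of 43346 Ensembl genes matched. Of the 85 member transcripts 83 had the same length in M21. The listed 38 Hox genes were analysed, and other Hox genes are not reported here. Members and gene lists were chosen with earlier results of these data known. Named by rule were Hox genes whose mean TPM reached 1, the next 3, every called Hox gene, the 2 highest and any at 0 of each cofactor, regulator, neighbour and target list, and the 5 highest other genes of the clusters; further Hox genes and markers were named to account for every member.

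TMM factors came from edgeR 4.0.16 and alternative size factors from DESeq2 1.42.0 in R 4.3.3. With 1 group there is no contrast for a quasi-likelihood test. The exact binomial test used SciPy 1.17.1, with numpy 2.4.6 and pandas 2.3.3 in Python 3.11.15, and was tested on simulated data. The pseudocount was 1, the count minimum 10 in the pair, and the limit for a count of 0 was 3 counts. Homeoboxes were located in GENCODE transcripts and microRNAs taken from RefSeq. Figures were drawn with matplotlib 3.10.9. Reads carry no molecular identifiers, so intervals and limits cover counting error only. Alternatives changed the unit, pseudocount, filters, scaling and libraries.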

Additional observations from a re-analysis of the deposited data

How the results depend on the processing

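The number of detected Hox genes was 20, and 16 to 24 under other thresholds and units or with 1 library left out (20 to 23). The difference of 3.68 between the medians of groups 1 to 4 and 9 to 13 was 6.84 with a pseudocount of 0.1, 3.08 with FPKM, 3.59 with the posterior mean TPM, 3.84 with CPM, and 1.98 over genes that reached 10 counts in the pair, where few genes of groups 9 to 13 remain; with 1 library left out it was 3.66 to 3.71. The difference between groups 5 to 8 and 1 to 4, 0.62, was 0.26 with CPM and 0.35 to 0.90 with 1 library left out. By estimated counts, not divided by length, clusters A, B, C and D held 26.0%, 45%, 16.7% and 12.3%, and groups 1 to 4, 5 to 8 and 9 to 13 held 38.4%, 60.5% and 1.12%; groups 9 to 13 held 1.01% by the posterior mean TPM. Hox genes higher in replicate 2 numbered 18, beside 7.07% of all genes tested. They numbered 11 with spike-in scaling, beside 2.82% of all genes, and 10 at a 1.5-fold difference of TPM, beside 4.80% of genes with a TPM of at least 1 in replicate 2. They numbered 18 with DESeq2 size factors (7.02%), total counts (6.65%) and at least 50 counts (8.46%), 17 with no count filter (4.96%) and 13 by disjoint deposited intervals (1.76% of all genes). Of the 23 named Hox genes, 20 had a posterior mean TPM within 1 SD of the TPM, and the ratio ran from 0.973 to 1.49, highest for Hoxa9 at 1.27 TPM. With 2 libraries of 1 group the spread rests on 1 difference per gene. No paired analysis was possible because the libraries form a single group.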
